A study of Mus musculus with 22 samples.

Results

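The genes described here encode the enzymes and regulators of cholesterol and fatty acid synthesis. They were taken from a list of 34 gene symbols, and each gene was represented by its probe with the highest mean over all 22 samples. Probes were found for 33 of the 34 genes, out of 22485 named genes on the array; Acat2 was not analysed here. They comprise 7 genes of the mevalonate and isoprenoid steps, 11 of the squalene and sterol steps, 5 of sterol sensing and transport, and 10 of fatty acid synthesis. The samples were astrocytes and microglia sorted from dissociated cortex of APPswe/PS1dE9 mice, called AD here, and of their WT littermates, on the C57BL/6 strain and aged 15 to 18 months. APPswe/PS1dE9 mice carry mutant amyloid precursor protein and presenilin transgenes under the control of prion protein gene sequence, and amyloid builds up in their cortex. There were 4 AD and 4 WT astrocyte samples, sorted as GLT1+ and CD11b-, and 7 AD and 7 WT microglia samples, sorted as CD11b+ and CD45+, after removal of myelin and of O4-positive cells. Each of 11 dual-colour Agilent arrays held the AD and the WT sample of one number and cell type, with the dyes exchanged between arrays.

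Cholesterol is made from acetyl-CoA through mevalonate, isoprenoid diphosphates, squalene and lanosterol. Fatty acids are made from the same acetyl-CoA through malonyl-CoA, and are then elongated and desaturated. Both branches are transcribed under the SREBP factors, encoded by Srebf1 and Srebf2, which the escort protein Scap carries out of the endoplasmic reticulum when sterol is low and which the Insig proteins hold back when it is high. In the adult brain, where plasma cholesterol does not enter in quantity, astrocytes are regarded as a main site of cholesterol synthesis and pass it to neurons on lipoproteins, whereas microglia take up lipid from myelin and debris.

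The values are log2 values as deposited, and every difference below, unless another is named, is AD minus WT in log2 units within arrays, with its standard error from limma and a p-value adjusted over all genes (Benjamini-Hochberg, two-sided, threshold 0.05). Sample medians lay between 6.24 and 6.26, so a shift shared by all genes could not be seen. Of 43020 probes, 42427 to 42869 were measured on each astrocyte array and 32045 to 40771 on each microglia array. The 4 astrocyte arrays lay on slide 3 and the microglia arrays on slides 1 and 2; the effect of slide and that of cell type cannot be told apart. The Y-linked gene Eif2s3y differed between the AD and the WT sample by more than 2 log2 units on the arrays of astrocyte replicates 1 and 3 and microglia replicates 1 and 7. Its AD and WT values were 9.64 and 4.58 in astrocyte replicate 1 and 9.63 and 4.54 in astrocyte replicate 3. They were 10.54 and 4.47 in microglia replicate 1, but 4.17 and 1.43, both low, in microglia replicate 7. The main counts of members are also given without these arrays. Of the defining markers, 13 of 13 astrocyte markers were higher in WT astrocytes than in WT microglia, and 13 of 14 microglia markers were lower. The exception was Itgam, which encodes the sorting antigen CD11b and did not pass. Of 11 endothelial markers, 10 were also higher in the WT astrocyte samples. Of all genes 35.3% were higher in WT astrocytes and 18.0% lower. All 33 genes stayed more than 0.5 below the maximum of 17.89, and 1 of them, Fads2, lacked a value on the array of microglia replicate 4.

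Upstream sequence was taken from RefSeq (GRCm38.p6) for 26 of the 33 genes, as 250 bases before to 50 bases after the annotated start. Fads1, Scd2, Fdps, Fdft1, Scd1, Stard4 and Sqle had no entry. Each was searched on both strands for the sterol regulatory element TCACNCCAC, which SREBP factors bind, for the CCAAT box CCAAT, bound by NF-Y, which is known to act together with them, and for the E-box CACGTG. Some genes have several annotated starts, and a gene was counted where any of its promoters held the motif. The CCAAT box was counted for 15 of 15 mevalonate to sterol genes, 3 of 4 sensing and transport genes and 4 of 7 fatty acid genes, compared with 41.1% of the 27025 genes in the table and 41.9% of measured genes. By promoter it was present in 15 of 18, 4 of 7 and 4 of 7, compared with 37.4% of 32851 promoters. The sterol regulatory element in this exact form was present only in Hmgcs1 among the 26 genes, compared with 1.44% of all genes, and the E-box in 6 of 26, compared with 8.09%. These are matches of letters and not shown to be sites. The promoters of 4 genes are shown as examples, chosen from the genes whose values are described sample by sample below. All 4 hold a CCAAT box, whereas Acaca, Elovl6 and Scap, also described by sample, hold none. Matches are in capitals, with CCAAT appearing as ATTGG where it lies on the other strand. The 4 are Hmgcs1 (chr13:119690101-119690400, plus strand), Idi1 (chr13:8885356-8885655, plus strand), Cyp51 (chr5:4104648-4104947, minus strand) and Insig1 (chr5:28071162-28071461, plus strand), each written 5′ to 3′.
Hmgcs1: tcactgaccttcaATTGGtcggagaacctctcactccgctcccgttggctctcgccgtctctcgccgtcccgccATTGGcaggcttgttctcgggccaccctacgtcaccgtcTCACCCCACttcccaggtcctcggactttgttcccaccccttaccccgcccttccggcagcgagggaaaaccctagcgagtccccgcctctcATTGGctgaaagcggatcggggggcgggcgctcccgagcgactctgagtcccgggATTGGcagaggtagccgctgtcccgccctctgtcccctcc
Idi1: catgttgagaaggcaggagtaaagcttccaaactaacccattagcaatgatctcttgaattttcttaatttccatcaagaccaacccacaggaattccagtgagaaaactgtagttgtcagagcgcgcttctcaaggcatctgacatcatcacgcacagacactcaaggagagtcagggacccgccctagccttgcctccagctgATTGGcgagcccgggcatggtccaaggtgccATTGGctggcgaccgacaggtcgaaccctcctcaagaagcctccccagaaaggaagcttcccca
Cyp51: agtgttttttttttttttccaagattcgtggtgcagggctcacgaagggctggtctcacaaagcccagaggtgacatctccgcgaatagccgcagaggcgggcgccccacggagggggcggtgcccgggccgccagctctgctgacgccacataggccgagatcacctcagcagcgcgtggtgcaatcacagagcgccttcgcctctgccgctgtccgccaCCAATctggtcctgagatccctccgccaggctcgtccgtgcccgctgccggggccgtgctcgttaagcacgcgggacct
Insig1: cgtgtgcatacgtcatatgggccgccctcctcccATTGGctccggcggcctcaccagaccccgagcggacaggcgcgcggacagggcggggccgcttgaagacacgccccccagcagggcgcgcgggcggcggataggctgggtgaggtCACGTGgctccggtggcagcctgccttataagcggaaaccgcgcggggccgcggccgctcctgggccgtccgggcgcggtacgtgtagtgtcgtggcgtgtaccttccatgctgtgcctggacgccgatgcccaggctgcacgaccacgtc
Hmgcs1 carries the sterol regulatory element with its first base at position -137 from the start and 4 CCAAT boxes. Idi1 has 2 CCAAT boxes, at -45 and -14, Cyp51 has 1 at -29, and Insig1 has 1 at -216 with an E-box at -101.

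Across the whole pathway the AD samples moved one way in astrocytes and mostly the other way in microglia. In AD astrocytes 31 of 33 genes were lower and 0 were higher; the exceptions were Ebp and Stard4. Of all 22474 genes tested in astrocytes, 33.4% passed the threshold, 18.0% lower and 15.4% higher. In AD microglia 17 of 33 genes were higher, 3 were lower (Mvd, Insig1 and Scd1) and 13 did not pass, against a background of 19.7% of 22386 genes, 8.27% higher and 11.4% lower. The median difference over the members was -1.11 in astrocytes and 0.39 in microglia, with -0.07 and -0.04 over all genes. Fewer cells of a type and less RNA per cell cannot be told apart in these bulk samples. These fits shared 1 estimate of the spread over the arrays of both cell types. With each cell type fitted on its own, 21 members were lower in astrocytes and 18 higher and 3 lower in microglia. Over all genes those fits called 1476 higher and 1343 lower in astrocytes, and 2043 higher and 2872 lower in microglia. Without the array as a block the member counts were 20 lower in astrocytes and 11 higher and 1 lower in microglia. With the arrays matched in Eif2s3y alone they were 27 lower in astrocytes and 15 higher and 2 lower in microglia. The AD samples lay all below the WT samples for 24 of 33 genes in astrocytes, and all above for 0, where this held for 11% and 6.37% of 21931 genes with a value in every sample. In microglia they lay all above for 6 of 32 genes and all below for 0, where this held for 2.85% and 1.56% of 16370 genes.

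**Figure D1:**
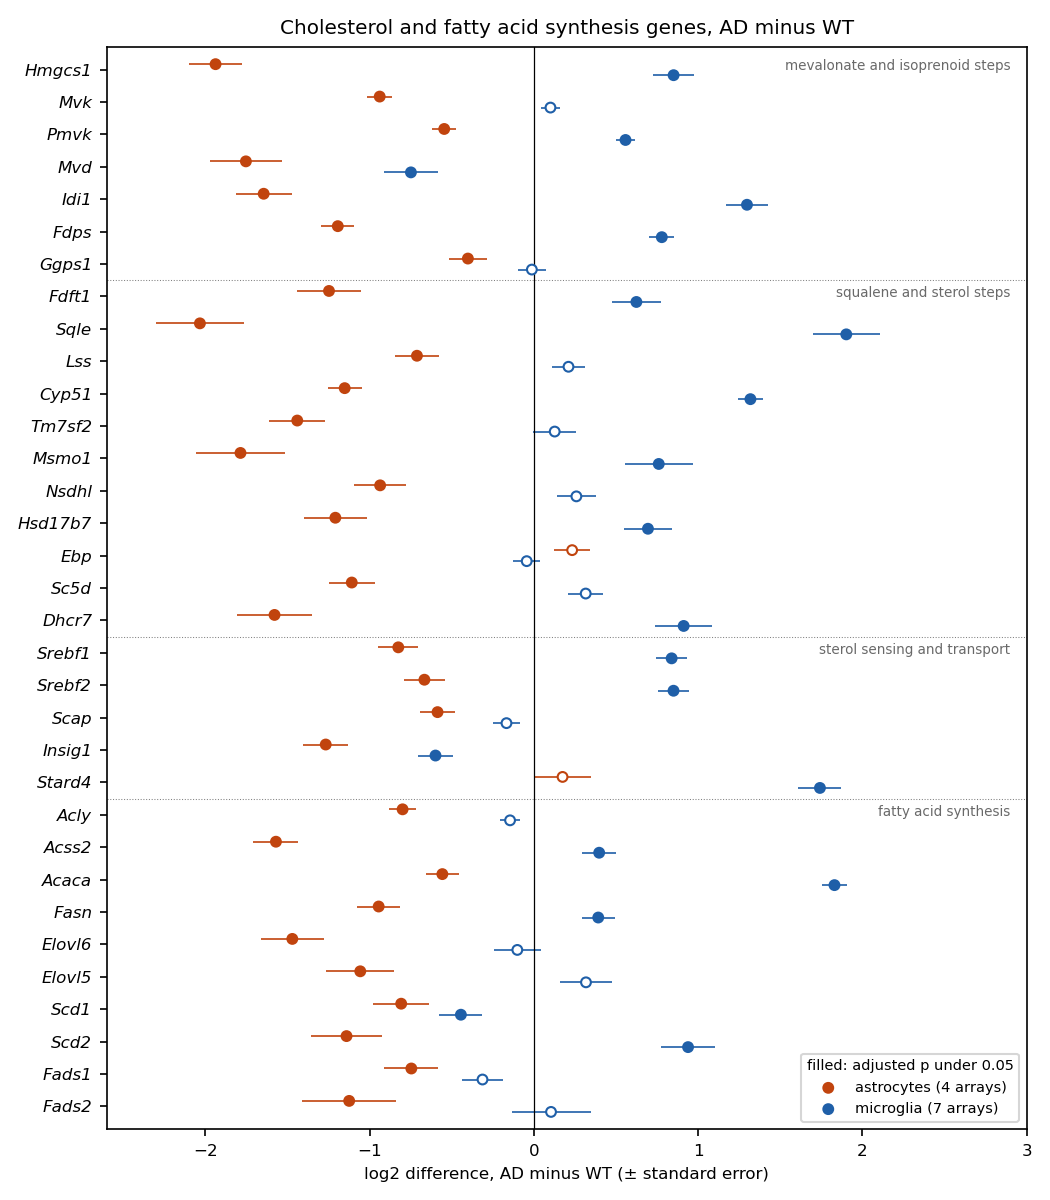
Difference between AD and WT for each of the 33 genes, in log2 units on the horizontal axis with the standard error as a bar, ordered by pathway class. Filled points passed an adjusted p of 0.05; 31 astrocyte points lie filled to the left of 0, while 17 microglia points lie filled to the right and 3 to the left.

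The genes of the mevalonate and isoprenoid steps were lower in AD astrocytes at 7 of 7, where 18.0% of all genes were lower. Their differences ran from -1.94 to -0.40. Hmgcs1, the synthase that makes HMG-CoA, had values of 12.40, 12.48, 13.24 and 12.37 in AD astrocytes, against 14.64, 14.53, 14.52 and 14.56 in WT astrocytes, in replicate order. All 4 AD samples lay below all 4 WT samples, the third AD sample being nearest to them. The difference was -1.94 ± 0.16 (adjusted p = 0.000118), a 3.83-fold fall. Mvk, which encodes mevalonate kinase, had 11.64, 11.72, 12.01 and 11.59 in AD astrocytes, against 12.45, 12.56, 13.02 and 12.69 in WT astrocytes, again with no overlap and a difference of -0.94 ± 0.08 (adjusted p = 0.000115). Idi1, the isomerase that balances the isoprenoid building blocks, had 10.92, 11.04, 11.61 and 10.58 in AD astrocytes, against 12.65, 12.73, 12.69 and 12.67 in WT astrocytes. The WT astrocyte values of Idi1 lay close together, whereas the AD values were spread more widely and all lower. Its difference was -1.65 ± 0.17 (adjusted p = 0.000196).

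Fdps, which joins these units into farnesyl diphosphate, had 11.16, 11.31, 11.47 and 11.06 in AD astrocytes, against 12.26, 12.43, 12.48 and 12.60 in WT astrocytes, a difference of -1.19 ± 0.10 (adjusted p = 0.000122). The other genes of these steps were also lower, with differences of -1.75 ± 0.22 for the decarboxylase gene Mvd, -0.55 ± 0.07 for the phosphomevalonate kinase gene Pmvk and -0.40 ± 0.11 for Ggps1, which makes the geranylgeranyl unit used in protein prenylation. Ggps1 was the smallest of these differences, its groups overlapped, and its adjusted p of 0.0211 exceeded 0.05 when any of astrocyte replicates 1, 2 or 4 was left out (up to 0.0897).

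In microglia 4 of these 7 genes were higher in AD (Hmgcs1, Pmvk, Idi1 and Fdps), Mvd was lower, and Mvk and Ggps1 did not pass. The shares of all genes there were 8.27% higher and 11.4% lower. Idi1 ranged from 8.16 to 9.42 (median 9.06) in AD microglia, against 7.02 to 8.03 (median 7.90) in WT microglia. The AD and WT microglia did not overlap, every array showed a rise of 0.71 to 1.74, and the fitted difference was 1.3 ± 0.13 (adjusted p = 0.000125), a 2.46-fold rise. Fdps ranged from 9.68 to 10.17 (median 9.93) in AD microglia, against 8.76 to 9.37 (median 9.16) in WT microglia, without overlap, and rose by 0.78 ± 0.08 (adjusted p = 0.000116). Pmvk ranged from 11.48 to 11.72 (median 11.62) in AD microglia, against 10.85 to 11.31 (median 11.07) in WT microglia and rose by a smaller but closely repeated 0.56 ± 0.06 (adjusted p = 0.000133). Hmgcs1 ranged from 10.70 to 11.58 (median 11.04) in AD microglia, against 9.78 to 10.70 (median 10.34) in WT microglia. Its groups overlapped across arrays, yet AD was above WT on 7 of 7 arrays, with a difference of 0.85 ± 0.12 (adjusted p = 0.0011).

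Mvd went against its neighbours in microglia. It was lower in AD on 7 of 7 arrays, with a difference of -0.75 ± 0.17 (adjusted p = 0.0108), although the genes of the steps before and after it, Pmvk and Idi1, were higher. The size differed between the slides, at -1.05 on slide 1 and -0.32 on slide 2. Mvk differed by 0.10 ± 0.06 and Ggps1 by -0.01 ± 0.09, adjusted p = 0.28 and 0.946.

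**Figure D2:**
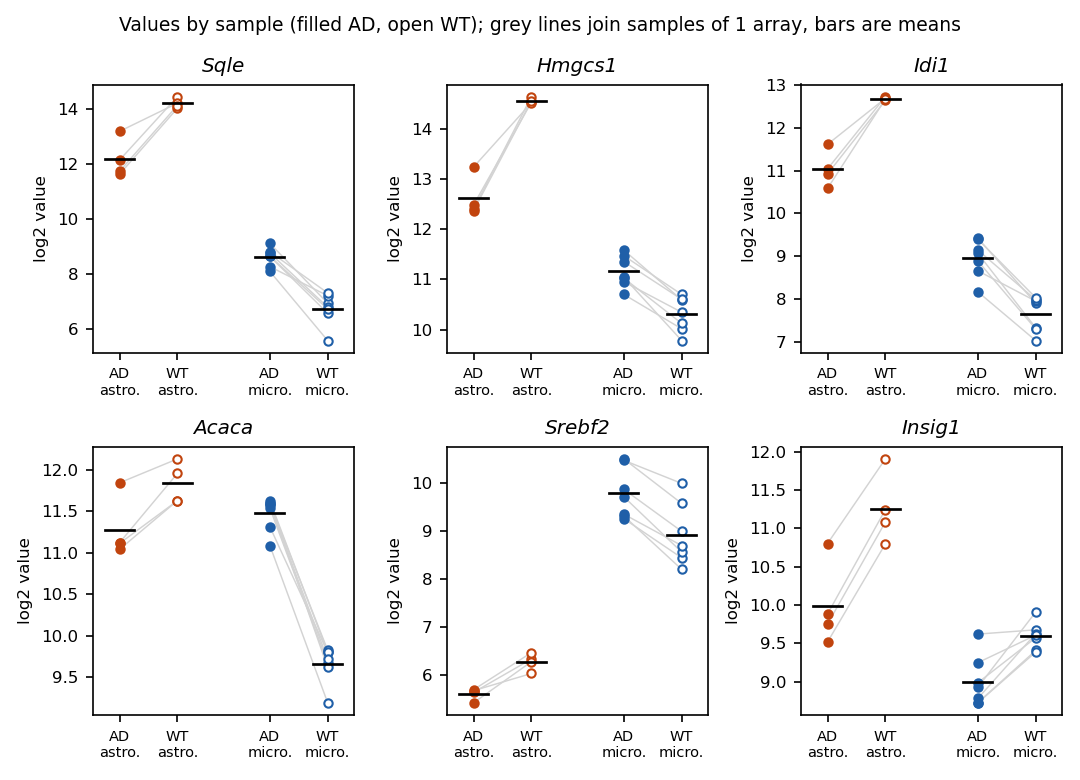
Values of 6 genes in every sample, log2 on the vertical axis, AD left of WT within each cell type, with black bars at the group means and grey lines joining the samples of an array. Sqle, Hmgcs1, Idi1, Acaca and Srebf2 are lower in AD astrocytes and higher in AD microglia, whereas Insig1 is lower in AD in both; the vertical scales differ between genes.

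The squalene and sterol steps gave the largest difference in astrocytes and in microglia, both at Sqle, the squalene epoxidase and a rate-limiting enzyme of the later pathway. Sqle had 11.63, 12.14, 13.19 and 11.74 in AD astrocytes, against 14.03, 14.45, 14.22 and 14.13 in WT astrocytes. Replicate 3 was the highest of the AD astrocyte samples and still lay below every WT sample. The difference was -2.03 ± 0.27 (adjusted p = 0.000459), a 4.09-fold fall. In microglia Sqle ranged from 8.09 to 9.11 (median 8.64) in AD microglia, against 5.57 to 7.30 (median 6.78) in WT microglia. Every AD sample was above every WT sample, by 1.06 to 2.52 on the individual arrays and 1.90 ± 0.20 in the fit (adjusted p = 0.000176), a 3.74-fold rise.

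Cyp51, the lanosterol demethylase, had 7.75, 7.57, 8.12 and 7.53 in AD astrocytes, against 8.95, 9.03, 8.93 and 8.67 in WT astrocytes, with no overlap and a difference of -1.15 ± 0.10 (adjusted p = 0.000127). In microglia it ranged from 5.38 to 7.37 (median 6.37) in AD microglia, against 4.03 to 6.11 (median 5.23) in WT microglia. The ranges overlapped, while the differences within single arrays were even, 1.14 to 1.47, for a difference of 1.32 ± 0.08 (adjusted p = 5.1e-06). Levels of Cyp51 were higher in both genotypes on the arrays of microglia replicates 1, 6 and 7, which made up slide 2. So was the mean over the 16310 genes with a value in every sample, at 8.17 to 8.26. On the microglia arrays of slide 1 that mean was 7.38 to 7.92. The genotype difference of Cyp51 was 1.32 on slide 1 and 1.34 on slide 2.

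Where 18.0% of all genes were lower in AD astrocytes, 10 of the 11 genes of these steps were lower. Besides Sqle and Cyp51 these were the methylsterol oxidase gene Msmo1 (-1.79), the reductase genes Dhcr7 (-1.58) and Tm7sf2 (-1.44), the squalene synthase gene Fdft1 (-1.25), Hsd17b7 (-1.21), the desaturase gene Sc5d (-1.11), Nsdhl (-0.94) and the lanosterol synthase gene Lss (-0.71), the last with overlapping groups. Hsd17b7 and Nsdhl encode a reductase and a dehydrogenase that act as the methyl groups of lanosterol are removed. Ebp, a sterol isomerase gene, was the exception: it had 11.60, 11.36, 11.29 and 11.77 in AD astrocytes, against 11.58, 11.33, 11.19 and 10.99 in WT astrocytes, with a difference of 0.23 ± 0.11 (adjusted p = 0.134). The difference was 0.78 on the array of replicate 4 and at most 0.10 on the other three.

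In AD microglia 6 of the 11 were higher and 0 were lower, against 8.27% and 11.4% of all genes. Besides Sqle and Cyp51, Dhcr7 rose by 0.91 ± 0.17, Msmo1 by 0.76 ± 0.21, Hsd17b7 by 0.69 ± 0.14 and Fdft1 by 0.62 ± 0.15, each on 7 of 7 arrays. Their ranges overlapped between AD and WT. Msmo1 and Fdft1 were near the threshold, with adjusted p = 0.0282 and 0.0155. Leaving out the array of microglia replicate 4 brought Fdft1 to an adjusted p of 0.0557, and leaving out any of microglia replicates 1, 3, 4, 5, 6 or 7 brought Msmo1 above 0.05, to at most 0.0682. The remaining 5 did not pass: Sc5d at 0.32 ± 0.11, Nsdhl at 0.26 ± 0.12, Lss at 0.21 ± 0.10, Tm7sf2 at 0.13 ± 0.13 and Ebp at -0.04 ± 0.08. Of these 5 values 4 were positive.

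**Figure D3:**
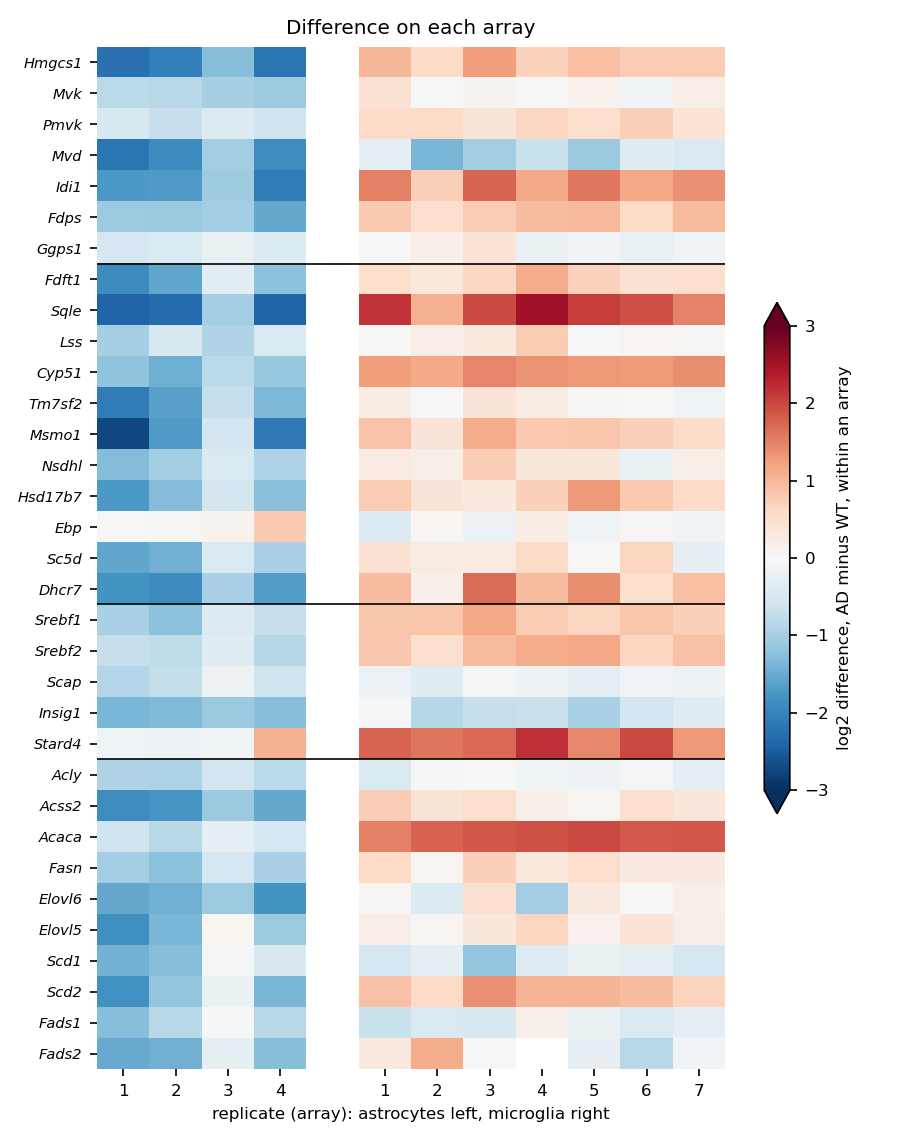
Difference between AD and WT on each single array, coloured from blue (lower in AD) to red (higher in AD) on a log2 scale, with astrocyte arrays left of microglia arrays and genes in pathway order. On the 4 astrocyte arrays 31 to 32 of 33 genes are lower in AD, with paler colours in replicate 3; on the microglia arrays 22 to 26 genes are higher, and the white cell is Fads2 on the array of replicate 4, which has no value.

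The direction was alike on the single arrays of each cell type. AD was below WT for 31 or 32 of the 33 genes on each astrocyte array, where 51.4% to 55.2% of all genes were lower. AD was above WT for 22 to 26 genes on each microglia array, where 43.6% to 52.8% of all genes were higher. Astrocyte replicate 3 had the smallest differences: its median over the mevalonate to sterol genes was -0.75, against -1.64, -1.45 and -1.25 in replicates 1, 2 and 4. In microglia these medians ran from 0.28 to 0.70.

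Genes that sense and move sterol followed the enzymes only in part. Srebf2, encoding the SREBP factor chiefly linked to sterol genes, had 5.65, 5.70, 5.68 and 5.43 in AD astrocytes, against 6.34, 6.47, 6.04 and 6.28 in WT astrocytes. The groups did not overlap and the difference was -0.67 ± 0.12 (adjusted p = 0.00267). In microglia it ranged from 9.25 to 10.49 (median 9.70) in AD microglia, against 8.20 to 9.98 (median 8.69) in WT microglia, and it was higher on 7 of 7 arrays, by 0.85 ± 0.09 (adjusted p = 0.000223). Srebf1, whose product is chiefly linked to fatty acid genes, had 9.25, 9.52, 10.51 and 9.50 in AD astrocytes, against 10.23, 10.75, 10.92 and 10.19 in WT astrocytes. The third AD sample lay above the lowest WT samples, but AD was lower on each array, with a fitted difference of -0.83 ± 0.12 (adjusted p = 0.000795). In microglia Srebf1 ranged from 6.78 to 7.61 (median 7.32) in AD microglia, against 6.00 to 6.79 (median 6.47) in WT microglia, with a difference of 0.84 ± 0.09 (adjusted p = 0.000216).

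Insig1, itself a known target of the SREBP factors and the protein that retains them, was lower in both cell types. In astrocytes it had 9.88, 9.75, 10.80 and 9.52 in AD astrocytes, against 11.24, 11.08, 11.90 and 10.80 in WT astrocytes. The third array was high in both genotypes, so the groups overlapped, while the 4 within-array differences were close to one another, -1.36 to -1.10. The fitted difference was -1.27 ± 0.14 (adjusted p = 0.000227). In microglia it ranged from 8.73 to 9.62 (median 8.93) in AD microglia, against 9.39 to 9.91 (median 9.61) in WT microglia, a difference of -0.60 ± 0.10 (adjusted p = 0.00317) that was -0.79 on slide 1 and -0.34 on slide 2. In AD microglia Insig1 was lower while 10 of the 18 enzyme genes of the sterol branch were higher.

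Scap, the escort, had 11.63, 11.94, 12.21 and 11.76 in AD astrocytes, against 12.52, 12.66, 12.35 and 12.35 in WT astrocytes. It was lower in AD astrocytes, with a difference of -0.59 ± 0.11 (adjusted p = 0.00258). In microglia it ranged from 11.20 to 11.47 (median 11.34) in AD microglia, against 11.34 to 11.65 (median 11.53) in WT microglia, and the difference of -0.17 ± 0.08 did not pass (adjusted p = 0.206). Stard4, which carries sterol between membranes, passed in microglia and not in astrocytes, and the effects differed by -1.57 ± 0.22 (adjusted p = 0.000757). It had 9.45, 9.18, 9.07 and 9.84 in AD astrocytes, against 9.58, 9.33, 9.14 and 8.78 in WT astrocytes, and its difference in astrocytes was 0.17 ± 0.17 (adjusted p = 0.486). Replicates 1 to 3 gave differences of -0.14, -0.16 and -0.07 and replicate 4 gave 1.06; without that array the fitted value was -0.07. In microglia Stard4 ranged from 7.03 to 8.45 (median 7.77) in AD microglia, against 4.84 to 7.03 (median 6.17) in WT microglia. AD exceeded WT on every array, by 1.29 to 2.19, and the difference of 1.74 ± 0.13 (adjusted p = 2.02e-05) was a 3.34-fold rise.

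The fatty acid synthesis genes were lower in AD astrocytes at 10 of 10, with a median of -1.0, where 18.0% of all genes were lower. In AD microglia 4 were higher, 1 was lower and 5 did not pass, with a median of 0.21. The shares of all genes in microglia were 8.27% higher and 11.4% lower, so the 1 lower gene is near the share. Acss2, which makes acetyl-CoA from acetate, had 9.81, 10.37, 10.81 and 10.14 in AD astrocytes, against 11.68, 12.14, 11.93 and 11.67 in WT astrocytes. All AD samples lay below all WT samples and the difference was -1.57 ± 0.14 (adjusted p = 0.000125), a 2.97-fold fall. Acly, which makes cytosolic acetyl-CoA from citrate, had 12.50, 12.61, 13.10 and 12.48 in AD astrocytes, against 13.40, 13.53, 13.68 and 13.29 in WT astrocytes, with a difference of -0.80 ± 0.08 (adjusted p = 0.000186). Fasn, the fatty acid synthase, had 7.70, 7.76, 8.47 and 7.54 in AD astrocytes, against 8.73, 8.99, 9.0 and 8.52 in WT astrocytes, a difference of -0.94 ± 0.13 (adjusted p = 0.000618). Elovl6, which elongates saturated and monounsaturated chains, had 8.11, 8.66, 8.98 and 8.02 in AD astrocytes, against 9.65, 10.10, 10.08 and 9.82 in WT astrocytes, a difference of -1.47 ± 0.19 (adjusted p = 0.000438). None of these 4 genes overlapped between AD and WT astrocytes, although Fasn in the third AD sample lay just below the lowest WT sample.

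The other fatty acid genes in astrocytes differed by -1.14 for the desaturase gene Scd2, -1.12 and -0.75 for the polyunsaturated fatty acid desaturase genes Fads2 and Fads1, -1.06 for the elongase gene Elovl5, -0.81 for Scd1 and -0.56 for Acaca. On the array of replicate 3 the differences of Elovl5, Scd1 and Fads1 were 0.06, -0.06 and -0.04, whereas on the other 3 arrays they lay between -1.84 and -0.47. Fads2 lost its call when any of astrocyte replicates 1, 2 or 4 was left out, with an adjusted p of at most 0.0675.

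In microglia the largest fatty acid difference was at Acaca, the acetyl-CoA carboxylase that commits acetyl-CoA to fatty acids. It ranged from 11.09 to 11.63 (median 11.58) in AD microglia, against 9.19 to 9.83 (median 9.71) in WT microglia. The groups were separated by more than 1 unit, the differences on single arrays ran from 1.52 to 1.99, and the fitted difference was 1.83 ± 0.08 (adjusted p = 8.71e-07), a 3.56-fold rise. Acaca had 4 probes, and all 4 were higher in AD microglia, by 1.74 to 2.23. Of 13 members with several probes, 0 had probes of opposite sign in either cell type. In a fit over all named probes, some dimmer probes of called members did not pass. In microglia these were of Acss2 (0.14, adjusted p = 0.321) and Fdft1 (0.47, 0.111). In astrocytes they were of Fdft1 (-0.64, 0.0679), Pmvk (-0.24, 0.0531), Ggps1 (-0.36, 0.0708) and Acaca (-0.47, 0.107). In astrocytes the same gene had 11.04, 11.12, 11.85 and 11.11 in AD astrocytes, against 11.63, 11.96, 12.13 and 11.63 in WT astrocytes, a difference of -0.56 ± 0.10 (adjusted p = 0.00206), the smallest among the fatty acid genes there.

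Scd2, the main stearoyl-CoA desaturase of the brain, ranged from 11.60 to 12.11 (median 11.82) in AD microglia, against 10.68 to 11.16 (median 10.999) in WT microglia. It did not overlap and rose by 0.94 ± 0.17 (adjusted p = 0.00335). Its paralog Scd1 went the other way, at -0.44 ± 0.13 (adjusted p = 0.039), lower on 7 of 7 arrays but with -1.19 on the array of replicate 3 and between -0.53 and -0.22 on the others. Its call was lost on leaving out any 1 microglia array other than that of replicate 5, or that of astrocyte replicate 4, with values of -0.48 to -0.37 and an adjusted p of at most 0.115. Acss2 ranged from 5.56 to 7.35 (median 6.66) in AD microglia, against 5.41 to 6.70 (median 6.27) in WT microglia, a difference of 0.40 ± 0.10 (adjusted p = 0.0246). Fasn ranged from 4.53 to 6.22 (median 5.50) in AD microglia, against 4.21 to 5.82 (median 4.97) in WT microglia, a difference of 0.39 ± 0.10 (adjusted p = 0.0223). Both overlapped between the groups and were near the threshold: leaving out 1 of 5 arrays (microglia replicates 1, 2, 3, 6 or 7) took Acss2 above it, and leaving out 1 of 4 (microglia replicates 1, 3, 4 or 5) took Fasn above it. Elovl5 (0.32), Fads2 (0.10), Elovl6 (-0.10), Acly (-0.15) and Fads1 (-0.31) did not pass in microglia.

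The 7 microglia arrays lay on slides 1 and 2, and 3 of the 33 genes (Ggps1, Elovl6 and Fads2, none of which passed) had opposite signs on them. Over the mevalonate to sterol genes the median was 0.60 with the arrays of slide 1 and 0.58 with those of slide 2, and over the fatty acid genes 0.29 and 0.22. All 17 genes that were higher and all 3 that were lower kept their sign on both slides. They had been called on these same arrays together, so the shared sign is not an independent check. With fewer arrays, 10 members passed as higher on slide 1 and 6 on slide 2, and 2 and 0 passed as lower.

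The effect of genotype differed between the cell types for most of the pathway. The astrocyte effect minus the microglia effect was negative and passed for 29 of 33 genes and positive for 0, where 26.6% of all genes passed, 13.2% lower and 13.4% higher. The smallest p-values belonged to Acaca (-2.39 ± 0.12, adjusted p = 1.44e-05), Cyp51 (-2.47 ± 0.13, 1.44e-05), Fdps (-1.97 ± 0.13, 3.7e-05), Idi1 (-2.94 ± 0.21, 5.13e-05) and Hmgcs1 (-2.79 ± 0.20, 5.13e-05). Sqle had the largest difference of effects, -3.94 ± 0.33 (adjusted p = 7.72e-05). The 4 genes that did not pass were Ggps1, Ebp, Scd1 and Fads1, with values of -0.39 ± 0.14, 0.28 ± 0.14, -0.36 ± 0.22 and -0.43 ± 0.21. Insig1 and Mvd, lower in both cell types, were lower by more in astrocytes, with differences of effects of -0.67 ± 0.17 and -1.0 ± 0.27. These lost the call when astrocyte replicate 1 or 2 was left out (adjusted p up to 0.0602 for Insig1 and 0.0805 for Mvd), and Mvd also without astrocyte replicate 4. Scap (-0.42 ± 0.14) lost it on leaving out any of 9 single arrays, all but microglia replicate 2 and astrocyte replicate 3 (adjusted p up to 0.153). Fads2 (-1.23 ± 0.37) lost it on leaving out any of 8, all but microglia replicates 4 and 6 and astrocyte replicate 3 (adjusted p up to 0.113). With the arrays matched in Eif2s3y alone 24 members passed, and Mvd, Lss, Scap, Insig1 and Fads2 did not (adjusted p from 0.0742 to 0.178).

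Gene by gene, 16 of the 33 members were lower in AD astrocytes and also higher in AD microglia. Of all 22386 genes tested in both cell types, 393 (1.76%) had that combination. The difference of effects passed for 16 of the 16. Choosing genes whose effects passed with opposite signs in the same fit makes this nearly certain. With the arrays matched in Eif2s3y the combination was found for 14 members, without Acss2 and Fasn, and for 0.782% of 21877 genes. These 16 were Hmgcs1, Pmvk, Idi1, Fdps, Fdft1, Sqle, Cyp51, Msmo1, Hsd17b7, Dhcr7, Srebf1, Srebf2, Acss2, Acaca, Fasn and Scd2. The opposite combination, higher in astrocytes and lower in microglia, was found for 0 members and 2.2% of genes. A further 12 members were lower in astrocytes and did not pass in microglia. Lower in both were 3 members and 3.75% of genes. Stard4 was higher in microglia alone, and Ebp passed in neither.

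**Figure D4:**
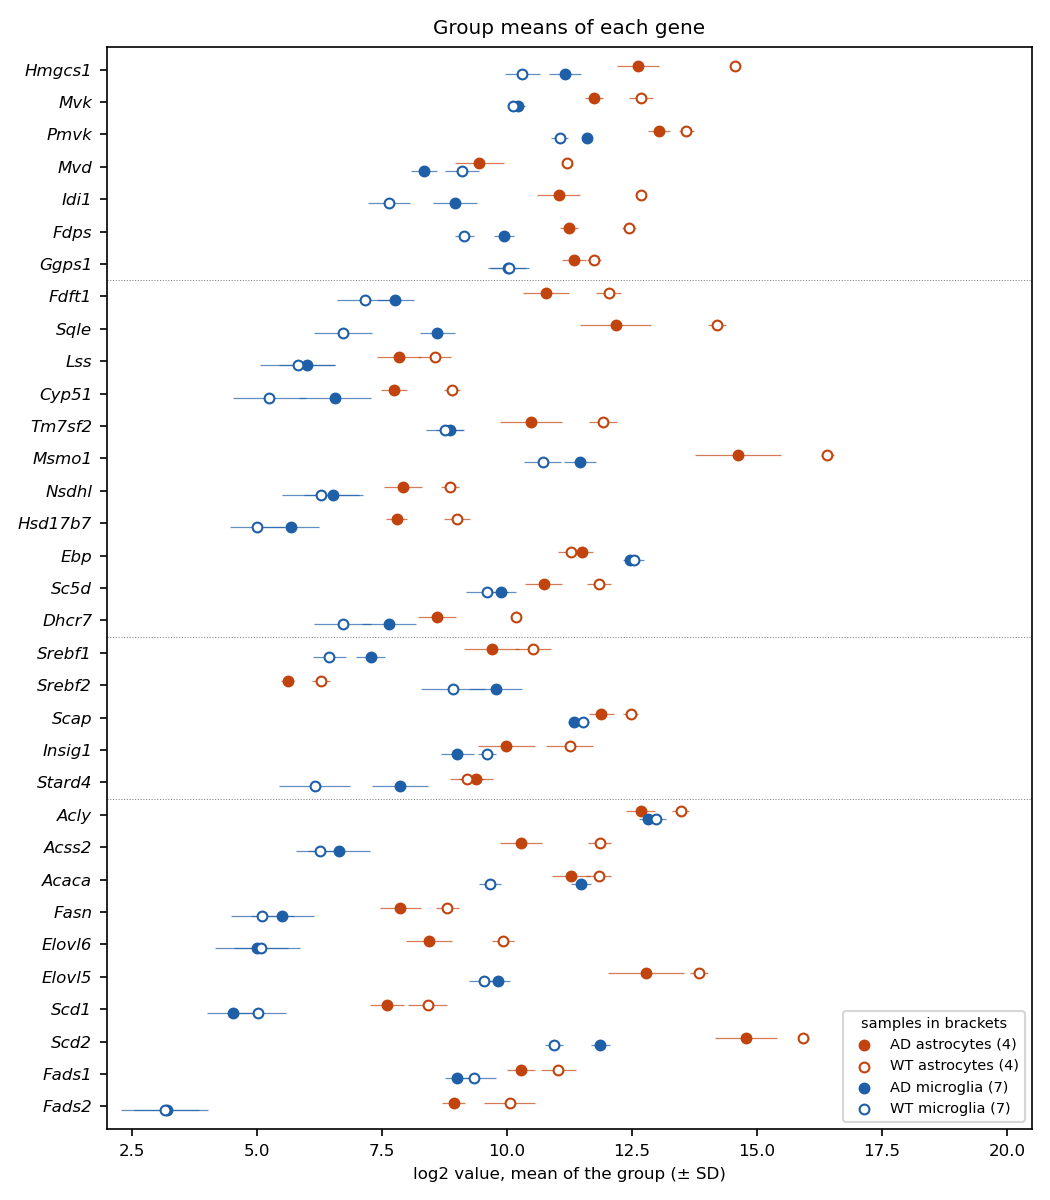
Mean log2 value of each gene in the 4 groups with the SD as a bar, AD filled and WT open, astrocytes in red and microglia in blue; levels of different probes are not comparable with one another. For most enzymes the astrocyte and microglia means stand closer together in AD than in WT; Srebf2 and Ebp have lower means in astrocytes than in microglia in both genotypes, and Acly and Acaca have lower means in astrocytes in AD alone.

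In WT samples most of these genes had higher values in astrocytes than in microglia. Of the 33, 31 were higher in WT astrocytes and 2 were lower, where 53.3% of all genes passed, 35.3% higher and 18.0% lower. Sqle differed by 7.49 ± 0.34, with means of 14.21 ± 0.18 in WT astrocytes and 6.72 ± 0.57 in WT microglia (SD, n = 4 and 7). Fads2 differed by 6.93 ± 0.42, Msmo1 by 5.70 ± 0.33, Acss2 by 5.60 ± 0.27 and Idi1 by 5.03 ± 0.25. The smallest of the 31 was Acly, at 0.51 ± 0.14, which no longer passed with slide as a random block (adjusted p = 0.217). Srebf2 and Ebp were lower in WT astrocytes, with differences of -2.64 ± 0.26 and -1.26 ± 0.14. The mean of Sqle was 12.17 ± 0.71 in AD astrocytes and 8.61 ± 0.34 in AD microglia, so for Sqle the cell types stood closer in AD than in WT. The cell markers also stood closer. The astrocyte list mean was 14.64 and 7.47 in WT astrocytes and microglia, and 13.51 and 7.02 in AD. For the microglia list it was 7.56 and 15.22 in WT, and 9.30 and 14.92 in AD. The part of these marker differences in the closer pathway values was not tested.

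**Figure D5:**
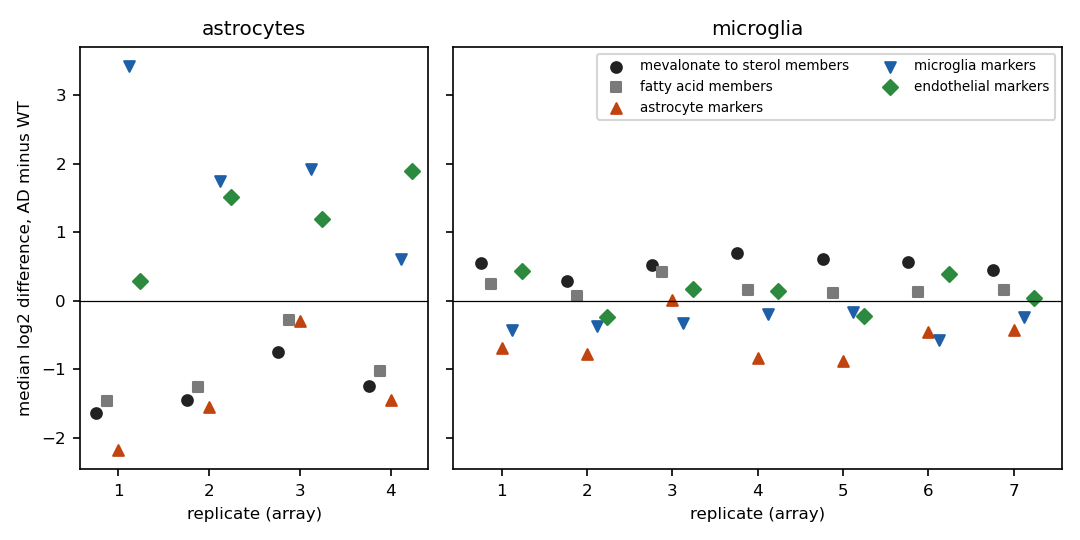
Median AD minus WT difference over each group of genes on every array, in log2 units, for mevalonate to sterol genes, fatty acid genes and 3 lists of cell markers. On the astrocyte arrays pathway genes and astrocyte markers lie below 0 and microglia and endothelial markers above it; on the microglia arrays pathway medians lie above 0 and astrocyte marker medians below it except in replicate 3.

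Markers of several cell types moved with genotype in the astrocyte samples. Of 13 astrocyte markers, 12 were lower in AD and Gfap was higher, with a median of -1.36. Of 14 microglia markers 12 were higher (median 1.90), of 11 endothelial markers 10 (median 1.17), and of 9 mural markers 7 (median 2.00). Of all genes 18.0% were lower and 15.4% higher in astrocytes. The mean level of the microglia list ran from 8.59 to 10.83 in AD astrocytes and from 6.88 to 8.39 in WT astrocytes, compared with 14.93 to 15.39 in WT microglia. On the arrays of replicates 1 to 4 the astrocyte marker medians were -2.18, -1.56, -0.30 and -1.45 and the microglia marker medians 3.42, 1.75, 1.92 and 0.60. Replicate 3, with the smallest pathway differences, also had the smallest astrocyte marker difference. The part of these marker differences in the lower pathway values was not tested. The astrocyte list mean ran from 12.72 to 14.52 in AD astrocytes and from 14.52 to 14.80 in WT astrocytes. The endothelial list mean ran from 13.08 to 13.93 in AD astrocytes and from 12.13 to 13.01 in WT astrocytes. For the mural list these ranges were 11.93 to 13.86 and 10.09 to 12.21. In AD replicates 1, 2 and 4, but not 3, the endothelial mean was above the astrocyte mean. Those endothelial means were 13.38, 13.72 and 13.93, against 12.72, 13.45 and 13.35, though the lists rest on different probes.

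In the microglia samples, where pathway genes were mostly higher, 6 of the 13 astrocyte markers were lower in AD and Gfap was higher, with a median of -0.70. Endothelial and mural markers had medians of 0.07 and 0.04, with 1 of 11 and 1 of 9 higher. Perivascular macrophage and monocyte markers were lower at 6 of 8 (median -0.98), neuron markers at 6 of 12 (median -0.48), and oligodendrocyte markers were higher at 2 of 9 (median 0.20). Of 14 microglia markers, Tyrobp and Trem2 were higher and 5 were lower. Of all genes 11.4% were lower and 8.27% higher in microglia. The part of these in the pathway values of microglia was not tested.

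Further genes of the pathway were taken from 3 lists. Of 8 measured genes of sterol synthesis and its regulation, 2 were lower in AD astrocytes and 2 higher. That is 25% each, where 18.0% of all genes were lower and 15.4% higher. Erg28, a scaffold of the sterol demethylation complex known from yeast, fell by 0.88 ± 0.11 and Tmem97, a sterol-regulated membrane protein gene, fell by 0.72 ± 0.10, while Mbtps1, the protease that first cleaves the SREBP precursors, rose by 0.33 ± 0.08 and Insig2 by 0.29 ± 0.08. In microglia Tmem97 rose by 0.34 ± 0.08 and Rnf145, a sterol-responsive ubiquitin ligase gene, fell by 0.50 ± 0.07; Mbtps1 differed by -0.14 ± 0.06 (adjusted p = 0.139). In microglia 12.5% of the list passed in each direction, where 11.4% of all genes were lower and 8.27% higher. The medians of this list were -0.20 in astrocytes and -0.10 in microglia.

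Genes that use isoprenoids showed no common direction. Of 10, 3 were lower in AD astrocytes and 1 higher, where 18.0% of all genes were lower and 15.4% higher. In microglia 2 were lower and 2 higher, where 11.4% of all genes were lower and 8.27% higher. In astrocytes the dolichol kinase gene Dolk fell by 0.81 ± 0.11, Nus1, a subunit of the enzyme that makes dolichol, rose by 0.47 ± 0.07, and Rabggta, a subunit of the Rab prenyltransferase, fell by 0.48 ± 0.09. In microglia Rabggta fell by 0.29 ± 0.07, its partner subunit gene Rabggtb rose by 0.39 ± 0.09 and Fnta, a subunit of the farnesyl and geranylgeranyl transferases, fell by 0.34 ± 0.08.

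Of 23 further fatty acid genes, 14 were lower (60.9%) and 1 (Hacd4) higher in AD astrocytes, and 4 were lower and 4 higher in AD microglia. Of all genes 18.0% were lower and 15.4% higher in astrocytes. The 17.4% in each direction in microglia compares with 11.4% of all genes lower and 8.27% higher. The lipogenic regulators Thrsp and Mid1ip1 were lower in AD astrocytes, with differences of -1.64 ± 0.16 and -1.82 ± 0.20. Hacd2, a dehydratase of chain elongation, was lower in AD astrocytes (-1.01 ± 0.16) and higher in AD microglia (1.16 ± 0.12), a difference of effects of -2.17 ± 0.20 (adjusted p = 9.99e-05). In microglia the elongase gene Elovl7 rose by 1.68 ± 0.21 and the desaturase family gene Fads3 fell by 0.40 ± 0.07. The medians of this list were -0.54 in astrocytes and -0.10 in microglia, compared with -1.0 and 0.21 for the 10 fatty acid members.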

How the data were processed

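The values are log2 intensities as deposited by the authors, 1 column per sample, from both channels of 11 Agilent arrays; RNA was linearly amplified before labelling, per the labels' protocols. The submitters' processing notes name limma; for its version and for how background and normalization were handled, the entry is: not given in the sources used here. Differences between AD and WT were computed here with limma 3.58.1 in R 4.3.3, with the array as a block, a dye term and a genotype effect in each cell type (8 residual degrees of freedom), and p-values were adjusted by Benjamini-Hochberg over all genes. The residual spread and the dye effect of each gene were estimated over the astrocyte and microglia arrays together. The pairing comes from the labels, which place the AD and WT samples of a number on 1 array; the within-array correlation was 0.635 in the cell type fit, where the array was a random block. Of 43020 probes, 33026 named 1 gene in the annotation used. The members and lists were chosen with earlier results of these data known. Values by sample in astrocytes, and the lowest, median and highest in microglia, are given for the 5 mevalonate and sterol genes and the 4 fatty acid genes with the smallest p in each cell type and for the 5 sensing and transport genes, and the 3 genes of each further list with the smallest p are named. Alternatives covered the block, dye, normalization, probes, dim or blank genes, slide, pairs differing in Eif2s3y, and each array left out. Simulated data held 100 genes changed by 1 log2 unit in each cell type. That change was recovered for 54% of them in astrocytes (22474 genes in the fit) and 69% in microglia (22386 genes). In each cell type 10 unchanged genes passed. In the real data 33.4% and 19.7% of genes passed, a far larger share, and the adjusted threshold depends on that share. The recovery therefore does not give the sensitivity of the real comparisons. The number of arrays limits the precision.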

Additional observations from a re-analysis of the deposited data

Results flagged for a closer look

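In 6 of 66 sets of within-array differences, 1 array lay far from the others of its cell type: its gap to the nearest array, as a share of the whole range, exceeded Dixon's 95% critical value for that number of arrays. By the construction of that value chance flags about 1 in 20 sets. In astrocytes these were Sqle on the array of replicate 3 (-1.03), and Ebp (0.78) and Stard4 (1.06) on that of replicate 4. In microglia they were Lss on the array of replicate 4 (0.75), and Srebf1 (1.16) and Scd1 (-1.19) on that of replicate 3.

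The genotype effect differed between astrocytes and microglia, by the test of the difference itself, for 29 members, each with a negative astrocyte minus microglia value in log2 units. In the mevalonate steps the values were -2.79 for Hmgcs1, -1.04 for Mvk, -1.10 for Pmvk, -1.0 for Mvd, -2.94 for Idi1 and -1.97 for Fdps. In the squalene and sterol steps they were -1.87 for Fdft1, -3.94 for Sqle, -0.92 for Lss, -2.47 for Cyp51, -1.57 for Tm7sf2, -2.55 for Msmo1, -1.19 for Nsdhl, -1.90 for Hsd17b7, -1.42 for Sc5d and -2.49 for Dhcr7. Among sensing and transport genes they were -1.66 for Srebf1, -1.52 for Srebf2, -0.42 for Scap, -0.67 for Insig1 and -1.57 for Stard4. Among fatty acid genes they were -0.65 for Acly, -1.97 for Acss2, -2.39 for Acaca, -1.34 for Fasn, -1.37 for Elovl6, -1.37 for Elovl5, -2.08 for Scd2 and -1.23 for Fads2. The effects of slide and of cell type cannot be told apart here.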

How the results depend on the processing

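Without the replicate block, that is without the pairing by array, 20 members were lower in AD astrocytes, 11 were higher and 1 lower in AD microglia, and 20 had a lower difference of effects. Over all genes that fit called 1387 higher and 1060 lower in astrocytes, 739 and 445 in microglia, and 788 and 703 for the difference, against 3464 and 4050, 1852 and 2552, and 3004 and 2948 with the block. With each cell type fitted on its own, 1476 genes were higher and 1343 lower in astrocytes, and 21 members were lower. With the arrays matched in Eif2s3y these counts were 1861 and 1929 in astrocytes, 1117 and 1153 in microglia and 1527 and 1550 for the difference. With the microglia arrays of slide 1, 808 genes were higher and 617 lower in microglia, 1736 and 1610 for the difference, and 10 members were higher in microglia. With those of slide 2 the counts were 445 and 140, 1112 and 1078, and 6 members higher and 0 lower in microglia. With slide as a random block, 4875 genes were higher and 2386 lower between the cell types, against 7901 and 4040.

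Leaving out 1 array at a time gave 29 to 31 members lower and 0 to 1 higher in astrocytes, the 1 being Ebp without astrocyte replicate 3 (0.35). It gave 14 to 19 higher and 2 to 4 lower in microglia, and 25 to 30 lower for the difference. Over all genes it gave 2671 to 3475 higher and 2844 to 4051 lower in astrocytes, 1469 to 1922 and 1831 to 2698 in microglia, and 2324 to 2943 and 2069 to 3000 for the difference. The sign turned only for values that had not passed. Stard4 in astrocytes was -0.074 without replicate 4 (range -0.074 to 0.36). In microglia Ggps1 was 0.073 with slide 1, 0.028 with the matched arrays and -0.082 to 0.032 leaving out 1 array (0.025, 0.0028, 0.032 and 0.010 without replicates 4, 5, 6 and 7). Elovl6 was 0.053 with slide 2 and 0.051 without replicate 4 (range -0.17 to 0.051), and Fads2 was -0.20 with slide 2 and -0.17 without replicate 2 (range -0.17 to 0.48). The matched and single-slide fits have fewer arrays; otherwise the cause was not tested.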
